A study of Mus musculus with 14 samples.

Results

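Adenosine deaminase (Ada) and 8 other purine genes were followed through mouse small intestine on oligonucleotide arrays. The 9 genes were Ada, Adk, Pnp, Nt5e, Xdh, Aprt, Hprt, Slc28a2 and Slc29a1, and a probe set was used where the platform annotation gave it exactly 1 of these symbols. That rule found 12 probe sets for 8 of the 9 genes, of 22690 probe sets and 12394 genes in all. The probe set of Slc28a2 is also annotated to Slc28a2b, so Slc28a2 has no value of its own. Adk had 4 probe sets, Aprt 2 and the other 6 genes 1 each. The set was chosen by the villus and crypt signals of Ada and its partners, so those values are described and not tested.

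The groups were adult villi and adult crypts, with 3 arrays each from C57BL/6 mice aged 12 weeks, and 2 layers of the fetal intestine at embryonic day 12 (E12), endoderm and mesenchyme. The layers were dissected after collagenase digestion, and each has 3 arrays from pools of 10 to 12 fetuses and a further array from a pool of 35 fetuses. No genotype beyond the adult strain is labelled, and none is labelled for the fetuses. The values are log2 signals in 2 tables that were normalized apart, so no level is set across them. The adult table holds the 6 adult arrays and the pair of arrays from 35 fetuses, and the E12 table holds the other 6 E12 arrays. Villus arrays carry the names 12, 41 and V275, crypt arrays 12, 21 and 41, and the E12 arrays tested 2, 3 and 4.

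Adenosine arises outside cells when nucleotidases such as NT5E (CD73) strip the phosphate from AMP, and it crosses membranes through nucleoside carriers. Inside the cell it is either phosphorylated back to AMP by adenosine kinase or deaminated to inosine by adenosine deaminase, after which PNP releases hypoxanthine and XDH oxidizes it to urate, while HPRT and APRT return free bases to the nucleotide pool. Villi are covered mainly by absorptive enterocytes, and crypts hold the stem, dividing and Paneth cells. In the adult mouse, adenosine deaminase is known to be abundant in the epithelium of the upper small intestine.

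The sequences just upstream of the start sites are shown for the genes on which the results turn: Ada, whose signal was high in villi, and Adk, Pnp and Hprt, which differed between the E12 layers. Each run is the 250 bases before an annotated start, 5′ to 3′ on the gene's strand, from RefSeq on build GRCm38.p6. Capitals mark the motif GGGCGG or its reverse complement CCGCCC, the core of the GC box. The windows are chr2:163750240-163750489 (minus strand) for Ada, chr14:21052324-21052573 and chr14:21075902-21076151 (plus strand) for Adk, chr14:50944053-50944302 (plus strand) for Pnp and chrX:52987828-52988077 (plus strand) for Hprt.
Ada: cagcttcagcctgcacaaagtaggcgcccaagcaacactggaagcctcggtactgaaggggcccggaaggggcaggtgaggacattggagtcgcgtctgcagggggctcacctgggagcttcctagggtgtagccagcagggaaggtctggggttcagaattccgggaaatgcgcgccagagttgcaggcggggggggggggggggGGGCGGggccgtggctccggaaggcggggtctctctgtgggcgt
Adk, first start site: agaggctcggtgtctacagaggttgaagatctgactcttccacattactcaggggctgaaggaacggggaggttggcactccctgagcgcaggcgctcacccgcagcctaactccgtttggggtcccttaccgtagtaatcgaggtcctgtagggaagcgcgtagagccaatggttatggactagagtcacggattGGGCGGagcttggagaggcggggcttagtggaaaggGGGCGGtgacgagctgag
Adk, second start site: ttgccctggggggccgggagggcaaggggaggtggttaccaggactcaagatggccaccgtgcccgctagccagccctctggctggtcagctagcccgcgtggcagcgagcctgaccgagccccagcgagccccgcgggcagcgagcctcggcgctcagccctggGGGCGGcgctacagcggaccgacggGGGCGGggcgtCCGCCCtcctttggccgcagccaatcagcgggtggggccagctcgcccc
Pnp: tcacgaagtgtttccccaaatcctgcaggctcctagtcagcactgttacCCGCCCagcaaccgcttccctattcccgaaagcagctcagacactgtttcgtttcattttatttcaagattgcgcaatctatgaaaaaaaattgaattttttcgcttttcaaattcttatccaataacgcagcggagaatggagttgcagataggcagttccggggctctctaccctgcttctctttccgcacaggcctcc
Hprt: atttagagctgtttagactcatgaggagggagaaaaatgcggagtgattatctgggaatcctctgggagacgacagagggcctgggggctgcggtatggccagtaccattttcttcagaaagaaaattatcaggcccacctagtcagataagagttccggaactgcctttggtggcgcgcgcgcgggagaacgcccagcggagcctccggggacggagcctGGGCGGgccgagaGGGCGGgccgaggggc
The motif search covered both strands. GGGCGG was found 1 time for Ada, 2 and 3 times in the first and second windows of Adk, 1 time for Pnp and 2 times for Hprt. It was in 32.7% of all 32851 RefSeq promoter windows of this length. The motif TATAAA, in 12.4% of all windows, was found 0 times in these 5 windows. The share of G and C was 67.2% for Ada, 58.8% and 75.2% for Adk, 46.8% for Pnp and 59.6% for Hprt, against a median of 52.4% over all windows. Across the 9 genes, 16 windows of 8 genes were listed, and Xdh had no entry. Among the windows not shown, GGGCGG was found 4 times for Nt5e, 3 times for Aprt and 0 times for Slc28a2. The windows of Slc29a1 held it 0 to 5 times. A link between the motif and the signals was not tested.

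Every array of a table lay in a narrow range, with medians of 6.67 to 6.80 among the adult and lone E12 arrays and 6.17 to 6.34 among the others. A signal under the 30th percentile of its table (5.78 in the adult table, 4.74 in the E12 table) is called dim here, because such signals are near background. Defining markers matched the labels: all 8 tested enterocyte markers were higher in villi, 4 of 4 Paneth markers were lower in villi, and 9 of 9 epithelial markers were higher in endoderm than in mesenchyme (limma adjusted p under 0.05). By group mean, Lct was dim in crypts, and Vil1, Krt20 and Cdx1 were dim in mesenchyme of the E12 table. T cell markers were higher in villi too, for 9 of 9 tested genes. Their summed linear signal over 11 genes was 4807, 7170 and 11143 in villus arrays 12, 41 and V275, against 1032 to 1147 in crypts. Cd8b1 and Cd2 were dim in villi, and Cd3g, Cd8b1 and Cd2 were dim in crypts. The Paneth sum over 4 genes was 9557, 1696 and 3798 in the same villus arrays, against 34801 to 38165 in crypts. The macrophage sum over 10 genes was 1152 to 2079 in villi and 4927 to 5648 in crypts. For liver and pancreas markers the sum over 9 genes was 1145 to 1780 in villi and 9048 to 11725 in crypts. Most tested genes of both these lists were not called in either direction. T cells are known to make adenosine deaminase and CD73, and the part of these cells in the villus values was not tested. In tissue samples such as these, fewer cells of a type and less RNA per cell cannot be told apart.

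In villi, the genes that turn adenosine into urate stood above their crypt levels, together with Nt5e and Aprt. Of the 8 genes, 5 were at least 2-fold higher in villi with no overlap between the arrays (Ada, Xdh, Pnp, Aprt and Nt5e), and none was lower by that measure. Of all 9962 genes tested, 10.7% were higher and 7.16% lower in villi by the same measure. The genes were chosen with this contrast in view, so the count is read as a description. The median log2 difference was 1.08 over the 8 genes and 0 over all genes tested.

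Ada, which deaminates adenosine and deoxyadenosine, had log2 signals of 11.98, 13.68 and 12.25 in villus arrays 12, 41 and V275, against 6.01, 5.98 and 5.81 in crypt arrays 12, 21 and 41. The villus values were all far above the crypt values, and the crypt values lay just above the dim limit. The means were 12.64 ± 0.91 in villi and 5.93 ± 0.11 in crypts (SD, n = 3 each), a log2 difference of 6.70 ± 0.40 (SE), or 104-fold. Because the crypt signal is near background, the fold is not exact. Villus array 41 was the highest for Ada and villus array 12 the lowest, while the T cell sum was also lowest in array 12 and was highest in array V275, and its part in the Ada values was not tested.

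Xdh, which oxidizes hypoxanthine and xanthine to urate, had 10.98, 11.81 and 11.27 in villus arrays 12, 41 and V275, against 7.27, 8.21 and 8.66 in crypt arrays 12, 21 and 41. The crypt arrays spread over a wider range than the villus arrays, and the groups did not overlap. The means were 11.35 ± 0.42 in villi and 8.05 ± 0.71 in crypts (SD, n = 3 each), a 9.86-fold difference (log2 3.30 ± 0.37, SE). Unlike Ada, Xdh was well above the dim limit in every crypt array.

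Pnp splits inosine and guanosine into a base and a sugar phosphate. It had 10.99, 11.45 and 11.49 in villus arrays 12, 41 and V275, against 9.09, 9.54 and 10.14 in crypt arrays 12, 21 and 41. Crypt array 41 was closest to the villi and crypt array 12 farthest, as for Xdh, and the groups stayed apart. The summed linear signal of 8 enterocyte markers was 1838, 3495 and 5984 in crypt arrays 12, 21 and 41, the same order as for Pnp and Xdh. It was 52134, 55988 and 63475 in villus arrays 12, 41 and V275. By their brightest probe sets, Aprt, Hprt and Adk also rose over the crypt arrays in that order. Ada and Slc29a1 fell in that order, and Nt5e was highest in crypt array 12. Lct was dim in crypts, and the part of enterocytes in these crypt values was not tested. The means of 11.31 ± 0.28 in villi and 9.59 ± 0.53 in crypts (SD, n = 3 each) were 3.29-fold apart.

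Nt5e, the cell surface enzyme that makes adenosine from AMP, had 7.54, 8.31 and 7.11 in villus arrays 12, 41 and V275, against 6.91, 6.42 and 6.47 in crypt arrays 12, 21 and 41. The lowest villus array and the highest crypt array were close. The means were 7.65 ± 0.60 in villi and 6.60 ± 0.27 in crypts (SD, n = 3 each), a 2.07-fold difference. The log2 difference of 1.05 ± 0.30 (SE) was 0.72 without villus array 41 and 0.96 without crypt array 21, under 2-fold in both cases.

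The base and nucleoside salvage genes did not move as 1 group. Aprt, which returns adenine to AMP, had 11.04, 11.11 and 11.38 in villus arrays 12, 41 and V275, against 9.69, 10.00 and 10.53 in crypt arrays 12, 21 and 41. The arrays did not overlap, and the means were 11.18 ± 0.18 in villi and 10.07 ± 0.42 in crypts (SD, n = 3 each), a 2.15-fold difference. The other Aprt probe set gave a 1.90-fold difference, and quantile normalization of the arrays reduced the log2 difference of the first to 0.73. It was 0.91 without crypt array 12, under 2-fold as well.

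Hprt, which salvages hypoxanthine and guanine, had 8.67, 9.37 and 9.08 in villus arrays 12, 41 and V275, against 9.35, 9.36 and 9.46 in crypt arrays 12, 21 and 41. The groups overlapped, with means of 9.04 ± 0.35 in villi and 9.39 ± 0.06 in crypts (SD, n = 3 each). The log2 difference of -0.35 ± 0.19 (SE) became -0.63 after quantile normalization and -0.17 without villus array 12.

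Adk, which phosphorylates adenosine to AMP, had 9.21, 8.81 and 9.08 in villus arrays 12, 41 and V275, against 8.54, 8.87 and 9.02 in crypt arrays 12, 21 and 41. These overlapped as well, with means of 9.03 ± 0.20 in villi and 8.81 ± 0.24 in crypts (SD, n = 3 each). The log2 difference was 0.22 ± 0.18 (SE) on this probe set, which is of a type prone to cross-hybridization, and -0.35 on the second brightest Adk probe set. The probe sets disagree in sign, so no direction is given for Adk. The remaining pair of Adk probe sets was dim in villi and in crypts, with log2 differences of 0.04 and 0.05.

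Slc29a1, an equilibrative nucleoside carrier, ran the other way. It had 6.88, 6.66 and 6.96 in villus arrays 12, 41 and V275, against 8.10, 7.80 and 7.40 in crypt arrays 12, 21 and 41. All villus arrays were below all crypt arrays, and the means of 6.84 ± 0.15 in villi and 7.77 ± 0.36 in crypts (SD, n = 3 each) put crypts 1.91-fold higher. Without crypt array 41 the log2 difference was -1.12, past 2-fold. Nt5e was then at 0.98 and Aprt, by its other probe set, at 0.98, which left Ada, Xdh and Pnp at least 2-fold higher in villi without overlap.

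**Figure D1:**
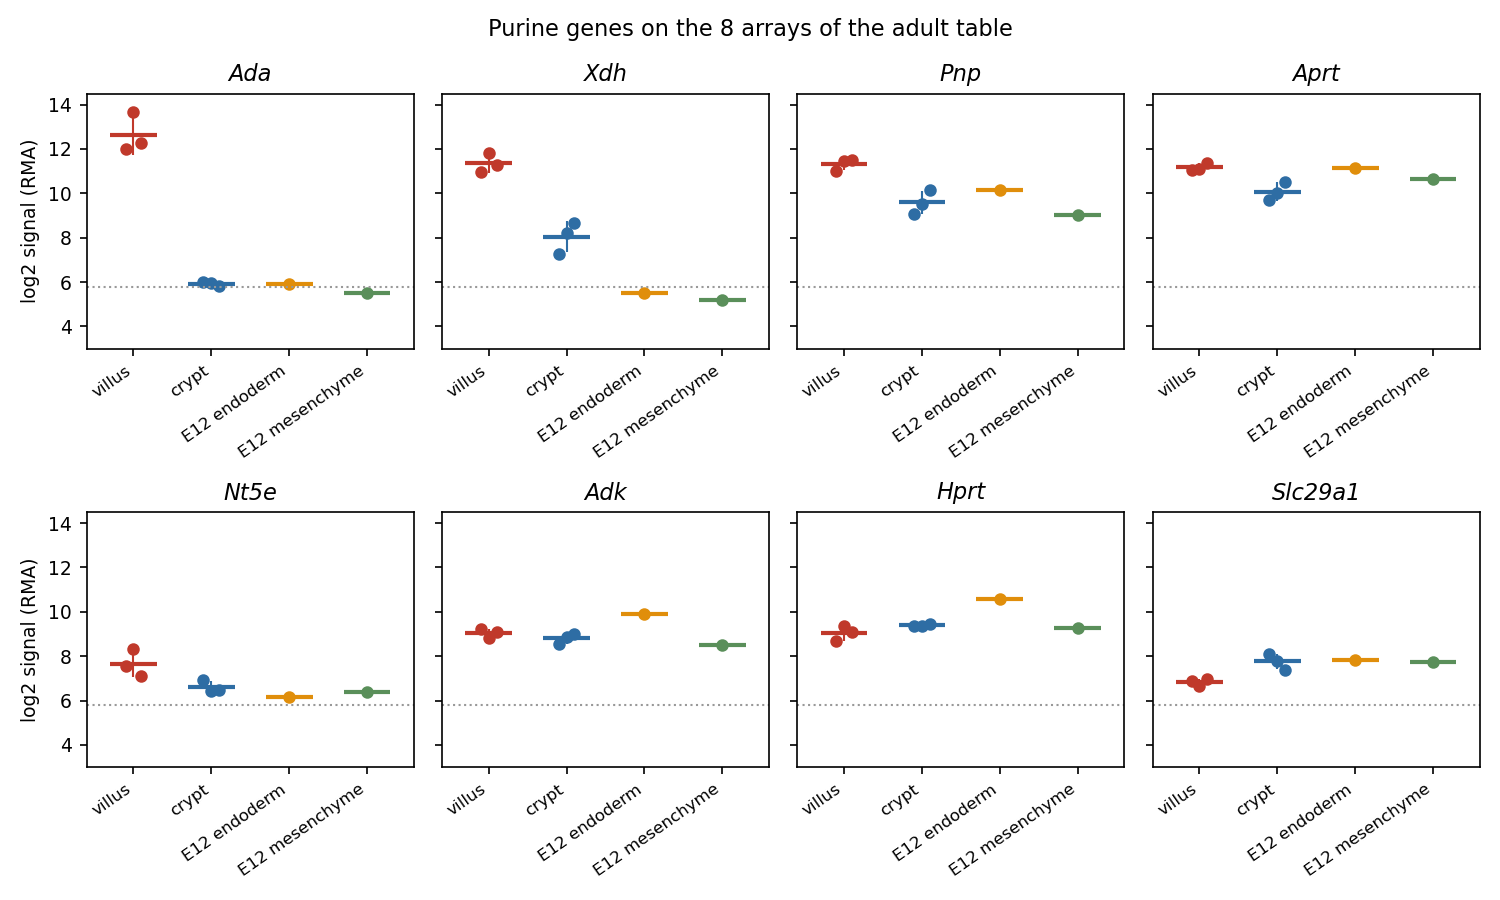
Log2 signal of the 8 genes on the 8 arrays of the adult table, by group (villus, crypt, E12 endoderm, E12 mesenchyme). Points are arrays, bars are means, vertical lines are SD where n = 3, and the dotted line is the dim limit of 5.78. Ada lies between 11.98 and 13.68 in villi and near the dotted line in the other groups.

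The adult table also holds a lone array of each E12 layer, which gives levels but no test. For Ada the order was villi (12.64), then crypts (5.93), E12 endoderm (5.91) and E12 mesenchyme (5.51). The crypt and E12 endoderm levels were 0.03 apart, less than the crypt SD of 0.11, and the mesenchyme value was dim. For Xdh the order was villi (11.35), crypts (8.05), E12 endoderm (5.49) and E12 mesenchyme (5.20), both E12 values being dim. Crypts thus stood 2.56 above the E12 endoderm array for Xdh, while for Ada they did not stand apart from it.

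Pnp was at 11.31 in villi, 9.59 in crypts, 10.13 in E12 endoderm and 9.02 in E12 mesenchyme. The crypt arrays ran from 9.09 to 10.14 and so included the endoderm value. Nt5e was at 7.65 in villi, 6.60 in crypts, 6.16 in E12 endoderm and 6.37 in E12 mesenchyme, and the lower 3 of these levels lay within 0.45 of each other. Aprt was at 11.18 in villi and 11.14 in E12 endoderm, which lay within the villus SD of 0.18, against 10.07 in crypts and 10.65 in E12 mesenchyme. The other Aprt probe set put the E12 endoderm array at 11.45, above the villus mean of 11.04 and every villus array, so the order of these groups is not settled for Aprt.

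Hprt, Adk and Slc29a1 reached at least as high in E12 endoderm as in either adult group. Hprt was at 9.04 in villi and 9.39 in crypts, against 10.56 in E12 endoderm and 9.25 in E12 mesenchyme. Adk was at 9.03 in villi and 8.81 in crypts, against 9.89 in E12 endoderm and 8.49 in E12 mesenchyme. For both genes the endoderm array was above every adult array. Slc29a1 was at 6.84 in villi and 7.77 in crypts, against 7.85 in E12 endoderm and 7.75 in E12 mesenchyme, so the villi stood below the other 3 groups, which did not differ beyond the crypt SD of 0.36.

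The E12 layers were tested in the E12 table, whose arrays are not those of the villus and crypt values. Adk, Hprt and Pnp were higher in endoderm, the layer that forms the epithelium, than in mesenchyme. They were 3 of the 7 genes tested, and 0 were lower. Of all 9442 genes tested, 27.7% were higher and 25.4% lower in endoderm (53.1% in either direction), so 3 of 7 is above the share of all genes that were higher and under the share called in either direction. The median log2 difference was 0.12 over the 7 genes and 0.03 over all genes tested.

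Adk had 11.11, 11.05 and 10.99 in endoderm arrays 2, 3 and 4, against 9.50, 9.62 and 9.85 in mesenchyme arrays 2, 3 and 4. The endoderm arrays were nearly equal and all above the mesenchyme. The means of 11.05 ± 0.06 in endoderm and 9.66 ± 0.18 in mesenchyme (SD, n = 3 each) were 2.63-fold apart (log2 1.39 ± 0.11 SE, limma adjusted p = 1.2e-05). The second brightest Adk probe set gave a log2 difference of 1.13, with 9.21 ± 0.27 in endoderm and 8.08 ± 0.12 in mesenchyme. The other pair gave 0.02 and 0.45, the larger of these from a probe set that was dim on every array. The median of the 4 probe sets gave 0.57 with a limma adjusted p of 0.0034.

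Hprt had 10.09, 10.65 and 10.64 in endoderm arrays 2, 3 and 4, against 9.14, 9.25 and 9.20 in mesenchyme arrays 2, 3 and 4. Endoderm array 2 was the lowest of its group and still above every mesenchyme array. The means of 10.46 ± 0.32 in endoderm and 9.20 ± 0.06 in mesenchyme (SD, n = 3 each) were 2.40-fold apart (log2 1.26 ± 0.15 SE, limma adjusted p = 0.00018).

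Pnp had 10.12, 10.08 and 10.11 in endoderm arrays 2, 3 and 4, against 9.01, 9.06 and 9.29 in mesenchyme arrays 2, 3 and 4. Again no array overlapped. The means of 10.10 ± 0.02 in endoderm and 9.12 ± 0.15 in mesenchyme (SD, n = 3 each) were 1.98-fold apart (log2 0.98 ± 0.10 SE, limma adjusted p = 5.7e-05). In the lone pair of the adult table the endoderm array was above the mesenchyme array by 1.39 for Adk, 1.31 for Hprt and 1.11 for Pnp on the log2 scale.

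Ada did not pass the test between the layers. It had 5.99, 5.43 and 5.67 in endoderm arrays 2, 3 and 4, against 5.84, 5.60 and 5.53 in mesenchyme arrays 2, 3 and 4, and the groups overlapped. The log2 difference was 0.04 ± 0.15 (SE, limma adjusted p = 0.85), and it was -0.11 without endoderm array 2 and -0.02 without mesenchyme array 4. Nt5e differed by 0.06 (limma adjusted p = 0.6), Aprt by 0.12 (0.41) and Slc29a1 by -0.09 (0.62), with overlapping arrays for each. Slc29a1 gave 0.06 without endoderm array 2. Xdh was dim on all 6 arrays and was not tested, with 4.33 ± 0.10 in endoderm and 4.33 ± 0.19 in mesenchyme (SD, n = 3 each).

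**Figure D2:**
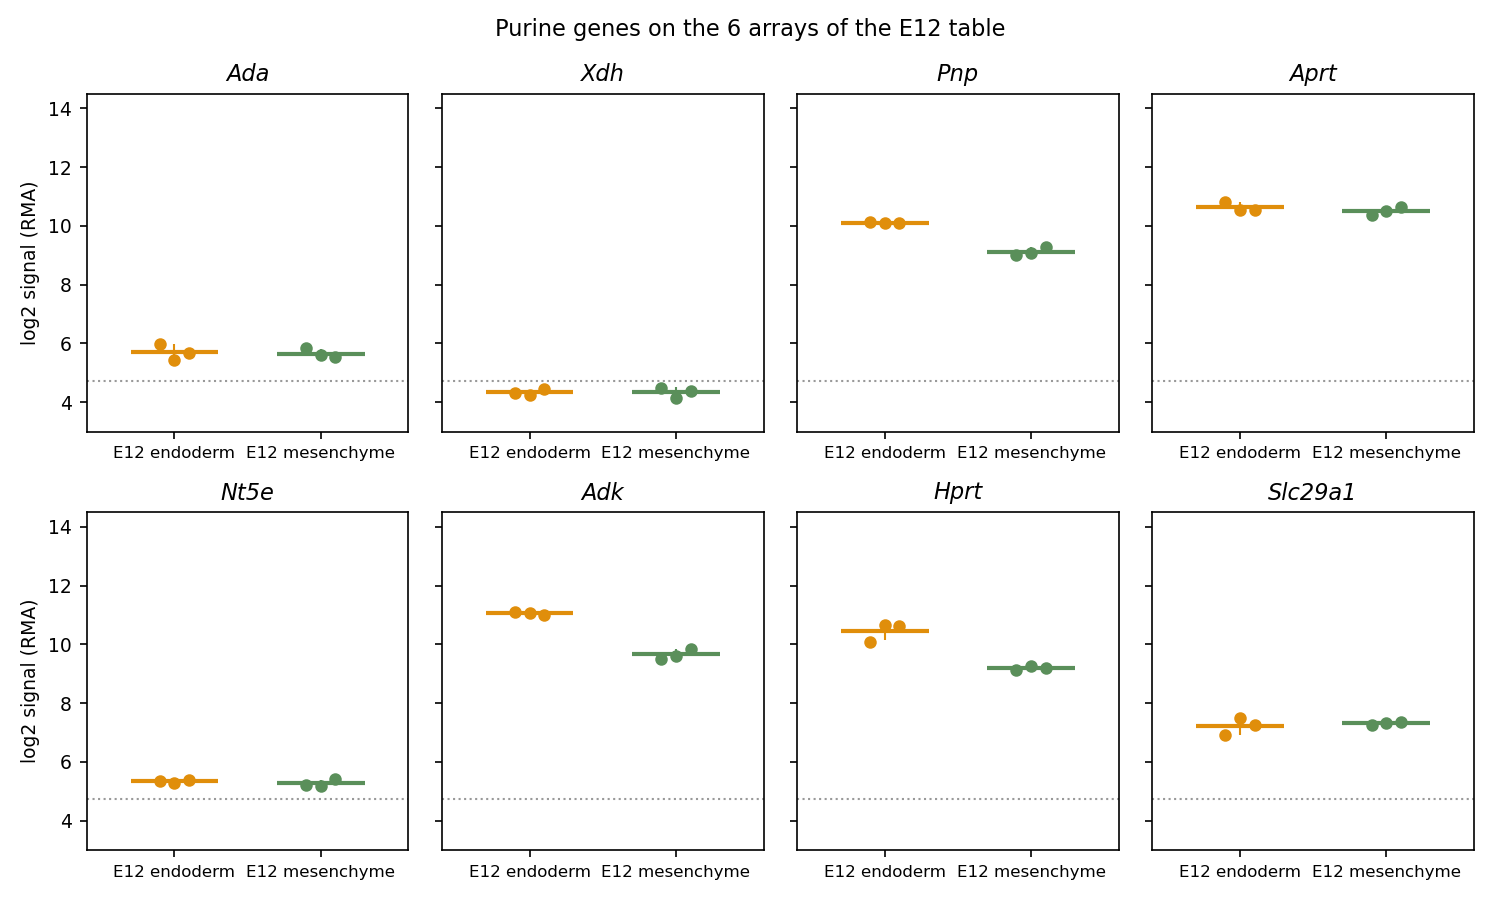
Log2 signal of the 8 genes on the 6 arrays of the E12 table, with E12 endoderm left of E12 mesenchyme. Points are arrays, bars are means, vertical lines are SD (n = 3 each), and the dotted line is the dim limit of 4.74. Adk, Hprt and Pnp are separated between the layers, Ada overlaps, and Xdh lies under the dotted line.

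The mesenchyme arrays held markers of several cell types. Endothelial markers were lower in endoderm for 8 of 8 tested genes, smooth muscle markers for 7 of 7 and neural markers for 5 of 5. Macrophage markers were lower for 7 of 9 and erythroid markers for 4 of 5, beside 25.4% of all genes tested. Group means were dim in endoderm alone for Pecam1, Cdh5, Tek, Emcn and Tie1 (endothelium) and Myh11 and Myocd (smooth muscle). The same held for Tubb3 and Ednrb (neural) and Csf1r, C1qa, C1qc and Tyrobp (macrophages). Such genes entered the test mainly through their mesenchyme arrays, so their direction was close to set by the filter. The erythroid sum over 8 genes was 452 to 526 in endoderm, against 14537 to 15556 in mesenchyme, and Epb42, Gata1 and Rhag were dim in both layers. The part of these cells in the Adk, Hprt and Pnp differences was not tested.

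The genes whose pattern was nearest to Ada over the 8 arrays of the adult table were Apoa4, Apoc3, 2010106E10Rik, Cyp3a11 and Slc15a1. Likeness was the root mean square log2 difference after each gene was centred on its mean, and it was 0.51, 0.56, 0.63, 0.68 and 0.69 for these genes in that order. Apoa4 encodes an apolipoprotein of lipid absorption, and it stood at 12.74 in villi (12.46 to 13.24) and 7.02 in crypts (6.73 to 7.28), with 6.45 in E12 endoderm and 5.89 in E12 mesenchyme. Slc15a1 encodes the intestinal peptide carrier, with 11.15 in villi and 5.85 in crypts. Villus array 41 was the highest villus array for Ada, Apoa4, Apoc3 and Slc15a1. For Cyp3a11 it was the lowest, and 2010106E10Rik was highest in array V275. Over the 6 arrays of the E12 table, the genes nearest to Adk were Prkca and Fgd2 (0.06 each) and Abhd14b (0.07). Prkca, which encodes a protein kinase C, stood at 7.46 in endoderm and 6.07 in mesenchyme.

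**Figure D3:**
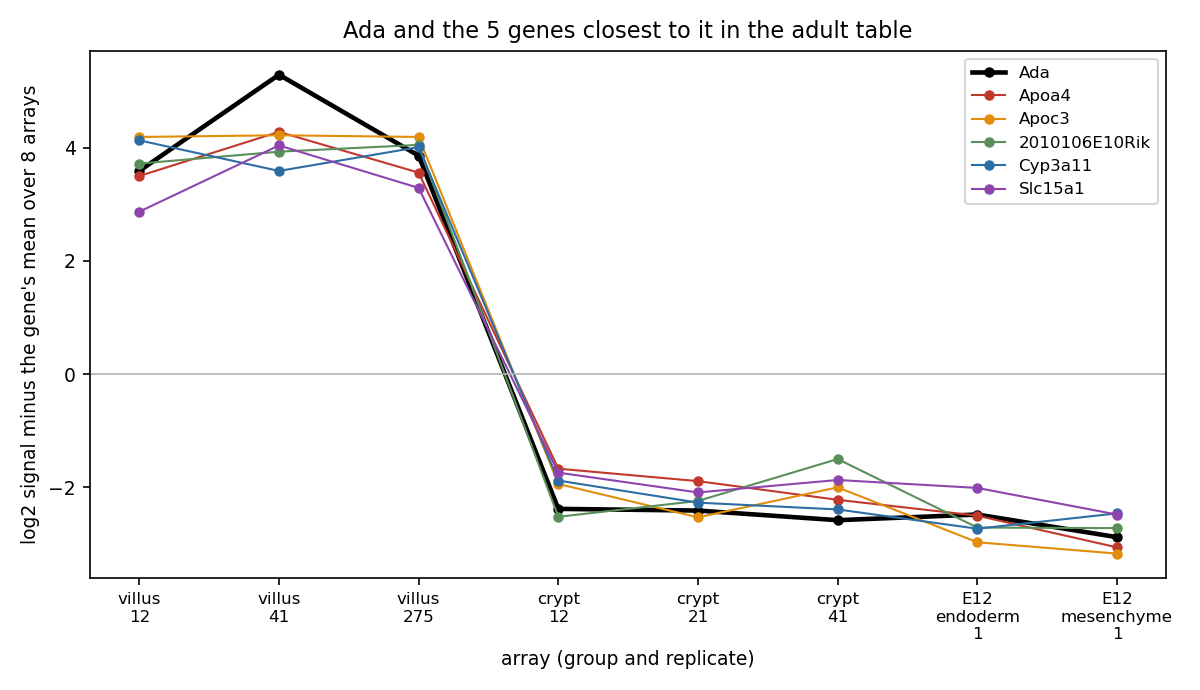
Log2 signal, centred on each gene's mean, of Ada and the 5 genes nearest to it over the 8 arrays of the adult table, with lines that only join a gene's points. All 6 genes are high on the 3 villus arrays and low on the others, and Ada is at 5.29 above its own mean on villus array 41. The 5 genes were picked for nearness to Ada on these same arrays, so the shared shape follows from the choice.

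Other genes of purine and pyrimidine metabolism were tested in both comparisons. Their lists were chosen with earlier results of these data known. The counts and p-values below are therefore no independent test of the pattern of Ada and its partners. Of 107 listed genes in 7 lists, 77 had a probe set. Between villi and crypts, 69 were tested, of which 16 were higher and 18 lower in villi, with a median log2 difference of -0.15. Of those called, Gda was dim on every crypt array, so the filter set its direction. Over all genes tested, 16.9% were higher and 15.0% lower in villi (32.0% in either direction, limma adjusted p under 0.05). Without crypt array 21 the listed genes called fell to 21 and all genes called to 1851, against 34 and 3183 with it.

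In the list of extracellular nucleotide breakdown and adenosine deaminase docking, 4 of 7 tested genes rose in villi and 0 fell. The median log2 difference was 1.19. Dpp4 encodes a brush border peptidase whose human protein binds adenosine deaminase, and it is not itself a nucleotide enzyme. The docking name of the list rests on that human protein, and binding in mouse was not measured. Dpp4 had 12.22 ± 0.41 in villi and 7.85 ± 0.76 in crypts (SD, n = 3 each), 20.7-fold higher in villi (limma adjusted p = 0.00033). Enpp3, a nucleotide pyrophosphatase of the cell surface, rose (10.52 ± 0.59 in villi, 5.75 ± 0.10 in crypts, limma adjusted p = 7.9e-05). It was dim on 2 of 3 crypt arrays, so its difference of 4.77 on the log2 scale is not exact, and the median of its probe sets gave 2.86. Entpd5 (log2 1.69) and Entpd2 (1.19), both nucleotidases that remove phosphates from nucleoside di- or triphosphates, made up the 4 and were named after their values were seen.

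Of the genes for breakdown inside the cell and urate handling, 5 of 13 rose and 2 fell, with a median of 0.27. Gda, which deaminates guanine to xanthine, had 9.44 ± 0.49 in villi and 4.59 ± 0.38 in crypts (SD, n = 3 each), a difference of at least 12.6-fold. Gda was dim on all 3 crypt arrays, so each was set to the dim limit for this bound. The gene entered the test through its villus arrays alone, so the filter set its direction and no p-value is given. The others that rose, named after their values were seen, were the exporter gene Abcg2 (log2 3.27), known to carry urate, the urate carrier gene Slc2a9 (1.72), and Mocs2 (1.94) and Mocos (1.55), which make and finish the molybdenum cofactor that XDH uses. Ampd2, an AMP deaminase gene, fell by 1.79 on the log2 scale (limma adjusted p = 8e-04). The Ampd2 difference was -1.01 without crypt array 21 and -0.97 without probe set types prone to cross-hybridization. Nt5c3b, a nucleotidase gene, was the other that fell (-0.56), and its limma adjusted p of 0.03 was 0.072 to 0.12 without crypt array 12 or 21 or villus array 12 or V275 (0.019 to 0.12 over the alternatives).

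De novo purine synthesis genes fell, for 5 of 10 tested, and 0 rose (median -0.41). Gart, which carries several steps of the pathway, had 6.54 ± 0.20 in villi and 8.63 ± 0.07 in crypts (SD, n = 3 each), so crypts were 4.23-fold higher (limma adjusted p = 0.00018). The median of the Gart probe sets gave a log2 difference of -0.83. Named after their values were seen, the others were Adsl (-1.47), Paics (-1.38), Prps2 (-0.58) and Impdh1 (-0.49). Adsl was dim on 1 of 3 villus arrays, so its difference is not exact. Without crypt array 12 the list had 3 calls and without crypt array 21 it had 2. Adsl reached a limma adjusted p of 0.061 to 0.081 without any 1 of the crypt arrays 12, 21 and 41 (0.015 to 0.081 over the alternatives), and Impdh1 reached 0.083 to 0.11 without crypt array 12 or 21 or villus array 41 or V275 (0.02 to 0.11). Prps2 was at 0.05 without crypt array 21 (0.0095 to 0.05). Markers of stem and dividing cells were lower in villi for 4 of 6 tested genes, with a summed linear signal of 896 to 1215 in villi and 3567 to 4324 in crypts, and their part in these differences was not tested.

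The salvage and nucleotide kinase list showed little that held. Of 12 genes tested, 1 rose and 2 fell (median -0.16), and 0 were called without crypt array 12 or without crypt array 21, and 1 without crypt array 41. Samhd1, which breaks down deoxynucleotides, had a log2 difference of 1.12 (limma adjusted p = 0.027), with 0.07 to 0.09 without any 1 of the crypt arrays and 0.061 after quantile normalization (0.0099 to 0.09 over the alternatives). Nme1, a nucleoside diphosphate kinase gene with a close paralog, had -0.93 (limma adjusted p = 0.029), with 0.057 to 0.09 without crypt array 12, 21 or 41 or villus array 12 or 41 (0.0019 to 0.09 over the alternatives), and -2.33 without probe set types prone to cross-hybridization. Nme4, named after its values were seen, had -0.59 (limma adjusted p = 0.047), with 0.11 to 0.17 without crypt array 12 or 21 or villus array 41 or V275 (0.018 to 0.17).

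In the list of adenosine receptors and the homocysteine cycle, 1 of 5 tested genes rose and 1 fell (median 0.18). The genes tested were Ahcy, Ahcyl1, Ahcyl2, Cbs and Mat2b, so no adenosine receptor gene was tested. Ahcy, which splits adenosylhomocysteine into adenosine and homocysteine, had 8.89 ± 0.71 in villi and 10.49 ± 0.14 in crypts (SD, n = 3 each), or -1.61 on the log2 scale (limma adjusted p = 0.0085). Its relative Ahcyl2 had a difference of 1.56 (limma adjusted p = 0.0062), or 0.60 by the probe set median. Of 3 other carrier genes, 0 passed the limma test and 2 had an unadjusted p under 0.05, and the largest difference was that of Slc28a3, a concentrative nucleoside carrier gene, at -0.46 (limma adjusted p = 0.45). It was 0.06 without crypt array 41, and 1 carrier gene was called in that setting.

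Pyrimidine genes split, with 5 of 19 higher and 8 lower in villi (median -0.33), and 7 calls in all without crypt array 21. Upp1, which splits uridine, had 12.08 ± 1.3 in villi and 8.36 ± 1.5 in crypts (SD, n = 3 each), 13.2-fold apart (limma adjusted p = 0.013). That p was 0.05 without crypt array 12 and 0.056 without crypt array 21 (0.005 to 0.056 over the alternatives). The deaminase gene Cda (log2 2.95) and Dpyd (3.71, or 2.42 without cross-hybridizing probe set types), which starts the breakdown of uracil, also rose and were named after their values were seen, as were the kinase genes Cmpk2 (1.27, or 0.75 by the probe set median) and Cmpk1. Cmpk2 was dim on 2 of 3 crypt arrays, so its difference is not exact. Cmpk1 had 0.54 with a limma adjusted p of 0.049, which was 0.098 to 0.17 without crypt array 12 or 21 or villus array 41 or V275 and 0.41 after quantile normalization (0.032 to 0.41 over the alternatives). Rrm2, a ribonucleotide reductase gene of dividing cells, had the largest fall at -1.40 (limma adjusted p = 0.039), with 0.057 to 0.14 without crypt array 21 or 41 or villus array 12 or V275 (0.0051 to 0.14 over the alternatives). Rrm2 was dim on 1 of 3 villus arrays, and its difference was -0.83 by the probe set median and -0.70 without cross-hybridizing probe set types. Tk1 (-1.38) and Ctps (-1.37), named after their values were seen, were close to it and ran from -1.47 to -1.30 and from -1.43 to -1.31 over the alternatives.

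**Figure D4:**
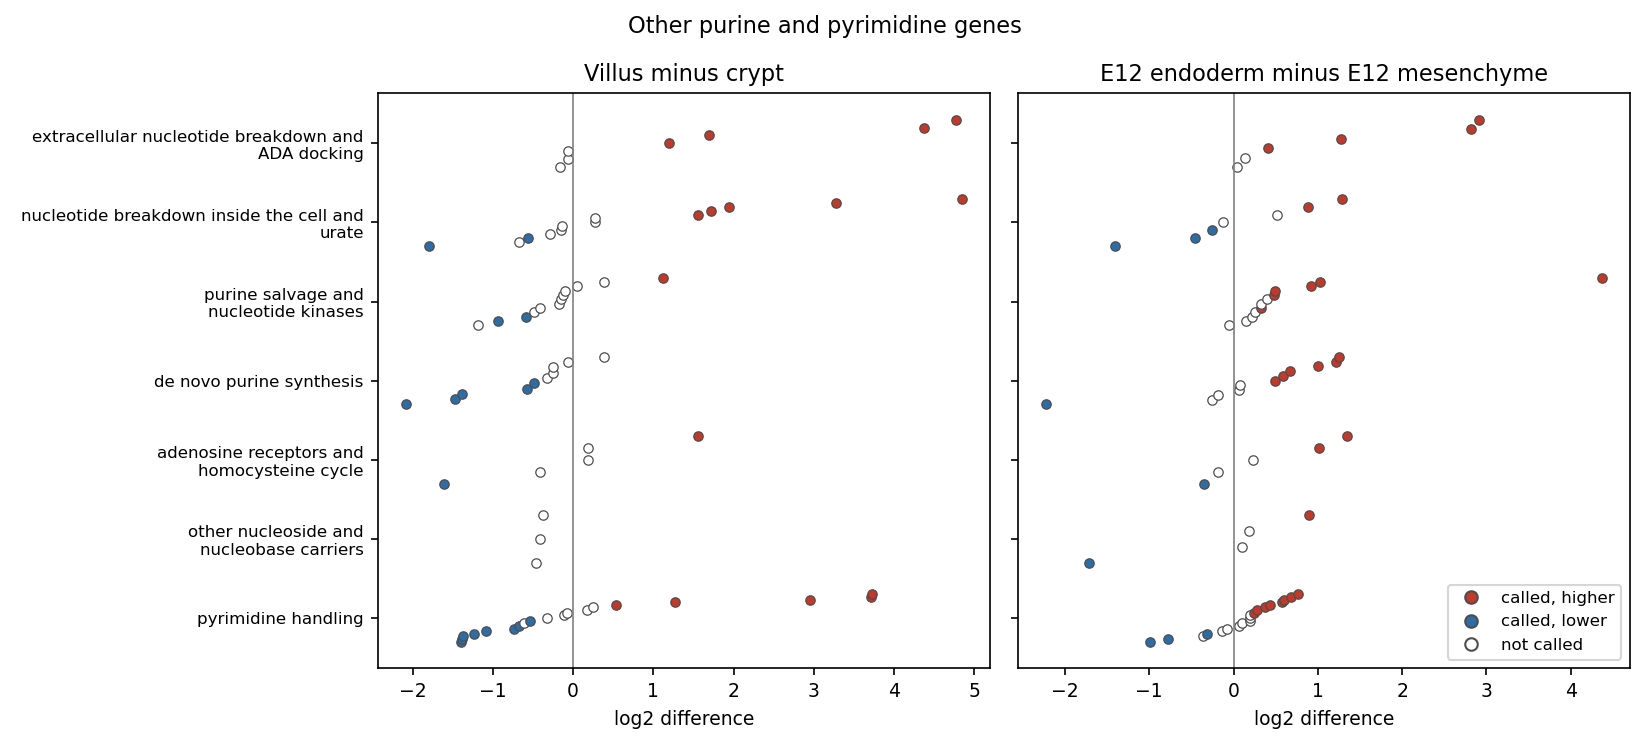
Log2 differences of the other purine and pyrimidine genes, villus minus crypt at left and E12 endoderm minus E12 mesenchyme at right, with a row for each list. Points are genes, filled where the limma adjusted p was under 0.05 (red higher, blue lower). In villi the breakdown lists reach 4.77 (Enpp3) and 4.85 (Gda, dim on every crypt array), while the called genes of de novo synthesis all lie below 0.

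Between the E12 layers 64 of these genes were tested, of which 29 were higher and 9 lower in endoderm (median 0.24), beside the 27.7% and 25.4% of all genes. Of those called, Adssl1 and Upb1 were dim on every mesenchyme array, so the filter set their direction in the counts below. In the list of extracellular breakdown and docking, 4 of 6 were higher and 0 lower (median 0.85). Dpp4 had 9.94 ± 0.15 in endoderm and 7.03 ± 0.21 in mesenchyme (SD, n = 3 each), 7.50-fold apart (limma adjusted p = 4e-07). The others, named after their values were seen, were the phosphatase gene Alpl (log2 2.82, dim on 2 of 3 mesenchyme arrays), Entpd5 (1.28, or 0.83 by the probe set median) and Enpp3 (0.41). Enpp3 had a limma adjusted p of 0.022, and 0.053 to 0.078 without mesenchyme array 2 or 4 or endoderm array 4 (0.0061 to 0.078 over the alternatives).

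Of 11 de novo synthesis genes, 6 were higher and 1 lower in endoderm (median 0.49). Adssl1, which makes adenylosuccinate, was at least 2.08-fold higher in endoderm (5.80 ± 0.24 in endoderm, 4.54 ± 0.13 in mesenchyme). It was dim on all 3 mesenchyme arrays, so this is again a bound against the dim limit. The gene entered the test through its endoderm arrays alone, so the filter set its direction and no p-value is given. Prps1, which makes the sugar phosphate that purine synthesis starts from, had 5.38 ± 0.19 in endoderm and 7.60 ± 0.11 in mesenchyme (SD, n = 3 each), so mesenchyme was 4.68-fold higher (limma adjusted p = 1.1e-06). Of 12 salvage and kinase genes, 6 were higher and 0 lower (median 0.36). The mitochondrial kinase gene Ak4 had 10.12 ± 0.16 in endoderm and 5.75 ± 0.02 in mesenchyme (SD, n = 3 each), 20.7-fold apart (limma adjusted p = 1.6e-08). The median of the Ak4 probe sets gave a log2 difference of 2.03 in place of 4.37.

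The remaining lists went both ways. Of 7 breakdown and urate genes, 2 were higher and 3 lower in endoderm (median -0.12), with the nucleotidase gene Nt5c up by 1.29 (limma adjusted p = 1.3e-05) and Mocs2 down by a log2 difference of -1.41 (limma adjusted p = 3.1e-06), or -0.72 by the probe set median. No adenosine receptor gene was tested between the layers. Of 5 homocysteine cycle genes, 2 were higher and 1 lower (median 0.23), or 1 called in all with the median of probe sets. Ahcyl2 had a difference of 1.35 (limma adjusted p = 3.9e-06), or 0.59 with an adjusted p of 0.069 in that setting (2.7e-06 to 0.069 over the alternatives). Ahcyl1 had -0.35 (limma adjusted p = 0.025), and 0.058 to 0.074 without mesenchyme array 2 or 4 or endoderm array 3 or 4 (0.015 to 0.17 over the alternatives). Ahcy, named after its values were seen, had 1.01. Of 4 carrier genes, Slc29a2 was higher by 0.90 (limma adjusted p = 0.0011) and Slc43a3, a nucleobase carrier gene, lower by a difference of -1.71 (limma adjusted p = 1.1e-05). Of 19 pyrimidine genes, 8 were higher and 3 lower (median 0.19), with 7 called in all without endoderm array 3 or without endoderm array 4. Cad, which starts pyrimidine synthesis, had 0.76 (limma adjusted p = 0.0029), and the uridine kinase gene Uck2 had -0.99 (limma adjusted p = 0.00017).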

How the data were processed

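RNA of adult villi and crypts and of E12 endoderm and mesenchyme was measured on single-colour oligonucleotide arrays. The deposited values are log2 signals, which the authors made with RMA per the submitters' processing notes. RMA corrects background, normalizes the arrays of a table together and summarises probes, and it compresses differences near background. The RMA version is not given in the sources used here, nor is a genome build. Arrays give no read depth, so their number limits the precision.

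Of 22690 probe sets, 20393 had 1 gene symbol, 691 several and 1606 none in the platform annotation. Entrez identifiers of 20364 were found in the RefSeq table of GRCm38.p6, used for names only. Only probe sets with 1 symbol were used, and the brightest one on average in a fit stood for its gene. Genes above the 30th percentile of their table in at least 3 arrays entered limma 3.58.1 (R 4.3.3, lmFit and eBayes), p-values were adjusted by Benjamini-Hochberg over all of them, and calls needed an adjusted p under 0.05. The limma script was tested on simulated data. Promoter windows were searched in Python 3.11.15.

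The purine genes, the pathway and marker lists and the rule for named genes were chosen with earlier results of these data known. Named pathway genes are Dpp4 and, per list and comparison, the largest rise and the largest fall among the calls, or the largest difference where there was no call. The marker lists were intestinal epithelium, enterocytes, stem and dividing cells, Paneth cells, T cells, B and plasma cells, macrophages, erythroid cells, stroma, smooth muscle, endothelium, neural cells, and liver and pancreas. Not printed above, epithelial markers had 3 of 9 tested genes higher and 1 lower in villi, B and plasma markers 0 of 4 and 2, macrophage markers 1 of 8 and 2, and erythroid markers 0 of 6 and 1. Stroma markers had 1 of 6 higher, liver and pancreas markers 1 of 6 lower, and smooth muscle, endothelial and neural markers 0 of 5, 0 of 4 and 0 of 3 called there by limma, with 1, 1 and 0 at an unadjusted p under 0.05. In endoderm, stroma markers were lower for 10 of 10 tested genes and Paneth markers for 1 of 3. Enterocyte markers were higher there for 6 of 6, stem and dividing cell markers for 2 of 6 and T cell markers for 1 of 4. B and plasma markers were higher for 1 of 1, and liver and pancreas markers for 3 of 7 with 1 lower. Group means were dim in endoderm alone for Pdgfra, Pdgfrb, Lum and Twist1, and in mesenchyme alone for Apoa4, Fabp1, Fabp2 and Slc5a1. Of 7 B and plasma genes only Blnk had a mean above the dim limit, in endoderm alone. Such genes entered the test mainly through 1 layer, so their direction was close to set by the filter.

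The labels do not say that arrays of a group come from separate animals, so p-values measure the spread between these samples, which may be technical. At most 5 of 12394 gene values in the adult table and 377 in the E12 table were equal in a pair of arrays, so no array was a copy. Same-numbered E12 arrays deviated together from their group means (r = 0.21, 0.23 and 0.11 for the numbers 2, 3 and 4), above the criterion of 0.1, so the numbers were taken to pair them. Endoderm 3 and mesenchyme 4 also reached 0.13. The main limma test of the E12 layers treated the arrays as unpaired, and its adjusted p-values are those printed for each gene. The pairing entered only as the replicate block among the alternatives. Alternatives were quantile normalization, other dim filters, the median of probe sets, no cross-hybridizing probe set types, a trended and robust prior, a replicate block, all 8 E12 arrays with the table as a block, and leaving out each array.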

Additional observations from a re-analysis of the deposited data

How the results depend on the processing

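Of 108 values or counts recomputed in 1432 alternatives, 1327 kept their direction, side of the threshold or size, 82 lost a call, 17 moved and 6 changed sign. Among those that moved, 2 also changed sign, both of Adk between villi and crypts, at -0.15 by the probe set median and -0.35 once probe set types prone to cross-hybridization were left out, against 0.22. Leaving out 1 array moved the genes called between villi and crypts to 1851 to 3069, and the listed pathway genes called there to 21 to 31, the lowest in both cases without crypt replicate 21. Every fit with 1 array left out has fewer residual degrees of freedom. Why the counts were lowest without crypt replicate 21 was not tested. Between the E12 layers the replicate block gave 3 of the purine genes, 5089 genes and 39 pathway genes called, so pairing changed no count by over 1.5 times. Between villi and crypts, where the shared numbers 12 and 41 correlated at 0.16 and 0.07 and only share a number, a random replicate block (correlation 0.115) gave 3373 genes and 35 pathway genes. The purine genes at least 2-fold apart without overlap there, in either direction, numbered 4 to 5 under every alternative run. Without crypt replicate 41 they were Ada, Xdh and Pnp, higher in villi, and Slc29a1, lower in villi. The other sign changes were Ada between the E12 layers at -0.11 to 0.17 with 1 array left out (-0.02 without mesenchyme replicate 4 and -0.11 without endoderm replicate 2), Nt5e there at -0.01 with all 8 E12 arrays, Slc29a1 there at -0.23 to 0.06 with 1 array left out (0.06 without endoderm replicate 2), Nt5c3b there at 0.04 with the median of probe sets, and Slc28a3 in villi at -0.79 to 0.06 with 1 array left out (0.06 without crypt replicate 41). Of these 8, Nt5c3b alone was called in the first place. The causes were not tested.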

Other observations

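The carrier and phosphorylase probe sets that match more than 1 gene were left out of the comparisons and have these values. The probe set shared by Slc28a2 and Slc28a2b, genes of sodium-coupled purine nucleoside carriers, had log2 signals of 10.44, 11.96 and 9.16 in villus arrays 12, 41 and V275, against 5.50, 5.56 and 4.97 in crypt arrays 12, 21 and 41. The villus arrays were all above the crypt arrays, and the crypt arrays were dim. Its lone E12 arrays in the adult table stood at 6.71 in endoderm and 4.67 in mesenchyme, and in the E12 table it had 7.40 ± 0.08 in endoderm and 4.01 ± 0.04 in mesenchyme (SD, n = 3 each). The mesenchyme arrays of the E12 table were dim as well. Against the dim limit of each table the signal was at least 26.7-fold higher in villi than in crypts and at least 6.33-fold higher in E12 endoderm than in E12 mesenchyme, and which of the genes gave the signal cannot be told apart. The probe set shared by Pnp2 and Pnp had 10.97 ± 0.19 in villi and 8.37 ± 0.69 in crypts, and 8.87 ± 0.12 in E12 endoderm and 7.86 ± 0.15 in E12 mesenchyme (SD, n = 3 each).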
